A study of Mus musculus with 12 samples.

Results

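The 38 genes described here encode proteins that build ribosomes in the nucleolus, together with Myc, the transcription factor best known for driving them. They were listed by symbol for their function, at a time when earlier results of these data were known, and each was read from 1 probe set, the one with the highest mean signal. All 38 were on the array and all 38 passed the filter on low signal, among 11849 genes tested in all. Rrp12 passed through the 3 knockout-labelled CLP arrays and 1 other array, so its values in that group were bound to be high. The main counts and medians over all members that it changes in comparisons of that group are also given without it. Total RNA of whole mouse lung was measured on 12 Affymetrix arrays, 3 in each of 4 groups: mice labelled PPTA knockout after cecal ligation and puncture (CLP), the same genotype label after sham surgery, wild-type mice after CLP, and wild-type mice after sham surgery. The study set out to describe how the septic lung changes in mice without PPTA. PPTA, now called Tac1, encodes the precursor of the neuropeptide substance P, and CLP, in which the cecum is tied and pierced, is a model of abdominal sepsis. All mice were 8 to 10 weeks old, had had surgery and were sampled 8 h after it. The wild-type mice were Balb/c and no strain was given for the others, so effects of strain and of genotype cannot be told apart. The labels speak of triplicates without saying that they were separate animals, and the p-values therefore measure the spread between these arrays, which may in part be technical.

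Ribosome assembly starts when RNA polymerase I transcribes the ribosomal RNA precursor in the nucleolus. Small nucleolar ribonucleoproteins (snoRNPs) modify the precursor, and assembly factors then cut and fold it into the small and the large subunit while ribosomal proteins are added. Cells that begin to grow or divide, activated leukocytes among them, are known to raise these genes, many of them through Myc and its partner Max.

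Several facts about the samples bear on every value. The Tac1 probe set read 337 to 462 in knockout-labelled CLP lungs and 379 to 530.3 in knockout-labelled sham lungs, against 3.95 to 16.1 in wild-type CLP lungs and 2.80 to 8.34 in wild-type sham lungs. This goes against the genotype label, although the deleted part of the gene was not stated and the probe set may lie outside it, so the mice are called knockout-labelled throughout. Whether the genotype labels were exchanged was not tested, and an exchange would turn the sign of every comparison between the genotypes. Lung identity was clear: Sftpc of alveolar type 2 cells, Ager of type 1 cells and Scgb1a1 of club cells each read 8135.5 or more on every array. Correlations of log2 signal between arrays of a group were 0.952 to 0.973 for knockout-labelled CLP and 0.937 to 0.981 for knockout-labelled sham, against 0.985 for wild-type CLP and 0.983 to 0.985 for wild-type sham. Array 3 of the knockout-labelled sham group stood apart: 17 of the 38 members had their lowest reading of all 12 arrays on it, and 29 their lowest of its group. Array 3 of the knockout-labelled CLP group held the highest of all 12 readings for 19 members. Signals are the deposited linear values, and differences are on the scale of log2(signal + 3.47), with limma's moderated test fitted to all 4 groups and Benjamini-Hochberg adjustment over 24574 probe sets. A member was called higher or lower at an adjusted p under 0.05.

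After CLP every member that passed the test was higher in knockout-labelled than in wild-type lung, and Nip7, Nhp2, Ddx21, Noc4l and Tsr1 kept that call with each array left out. In this comparison 14 of 38 members were called higher and 0 lower, set against 13% of all tested genes called higher and 18.7% called lower. The median member differed by 0.34 on the log2 scale (0.32 without Rrp12), while the median of all tested genes was -0.06. All 3 knockout-labelled CLP arrays read above all 3 wild-type CLP arrays for 19 members (18 without Rrp12), and below them for 0, where 21.1% of all genes lay wholly above and 28.7% wholly below. The count was 5 without knockout-labelled CLP array 3, 7 without wild-type CLP array 2 and 7 without wild-type CLP array 3, when 9.52%, 8.7% and 9.21% of all genes were called higher.

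Within knockout-labelled lung, 8 of 38 members were called higher after CLP than after sham and 0 were called lower, against 11.4% and 19.9% of all genes. The 8 were Myc, Nhp2, Ncl, Ddx21, Nip7, Noc4l, Gnl3 and Fbl. The median member differed by 0.26 (0.25 without Rrp12), against -0.11 for all genes, and 31 of 38 differences were above 0 (30 of 37 without Rrp12). For 10 members (9 without Rrp12) all 3 CLP arrays lay above all 3 sham arrays and for 1 member, Npm1, all lay below, where 13.8% and 24.5% of all genes did so. The count was 5 without knockout-labelled sham array 3, when 14.5% of all genes were called higher, and 5 without knockout-labelled CLP array 3, when 9.03% were. Without knockout-labelled sham array 3 the members' share called higher was thus not above that of all genes. Their median difference was also smaller without that array, while the median of all genes stayed at -0.11. Myc, Nhp2, Ncl, Ddx21 and Nip7 were called with every array left out. The count was 20 when each array was centred on its median, a scaling that moved the median of all genes to 0.11 and called 23.7% of them higher and 9.28% lower. It was 12 higher and 1 lower, Npm1, under quantile normalisation, when 12.2% of all genes were called higher and 16.2% lower. It was 2 (Myc and Nhp2) when the knockout-labelled groups were fitted alone, a share close to the 5.16% of all genes called higher in that fit. Npm1 was also called lower with array weights, and Dkc1 with the probe sets of a gene averaged.

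In wild-type lung no member was called between CLP and sham, with limma and an adjusted p under 0.05, where 1.1% of all genes were called higher and 0.0591% lower. An unadjusted p under 0.05 was reached by 3 members, Nip7, Polr1a and Noc3l, and 1 member, Nip7, was called lower with array weights. The median member differed by -0.03. The 8 and 0 members called in the 2 responses rest on 1 spread shared by all 4 groups. With the wild-type groups fitted alone, 4.33% of all genes were called higher and 1.1% lower. Between knockout-labelled and wild-type lung after sham surgery, again 0 of 38 members were called, against 4.87% of all genes higher and 3.88% lower. There 3 members (Noc3l, Nhp2 and Fbl) had an unadjusted p under 0.05 and the median member differed by 0.05. The direct test of whether the CLP response differed between the genotypes called 2 members, Nhp2 and Nip7, both with the larger response in knockout-labelled lung, where 1.86% of all genes were called higher and 3.13% lower. For the other 36 members a difference between the responses was not shown. The comparison of genotypes after CLP and the CLP response in knockout-labelled lung share the 3 knockout-labelled CLP arrays, so they are not separate evidence.

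**Figure D1:**
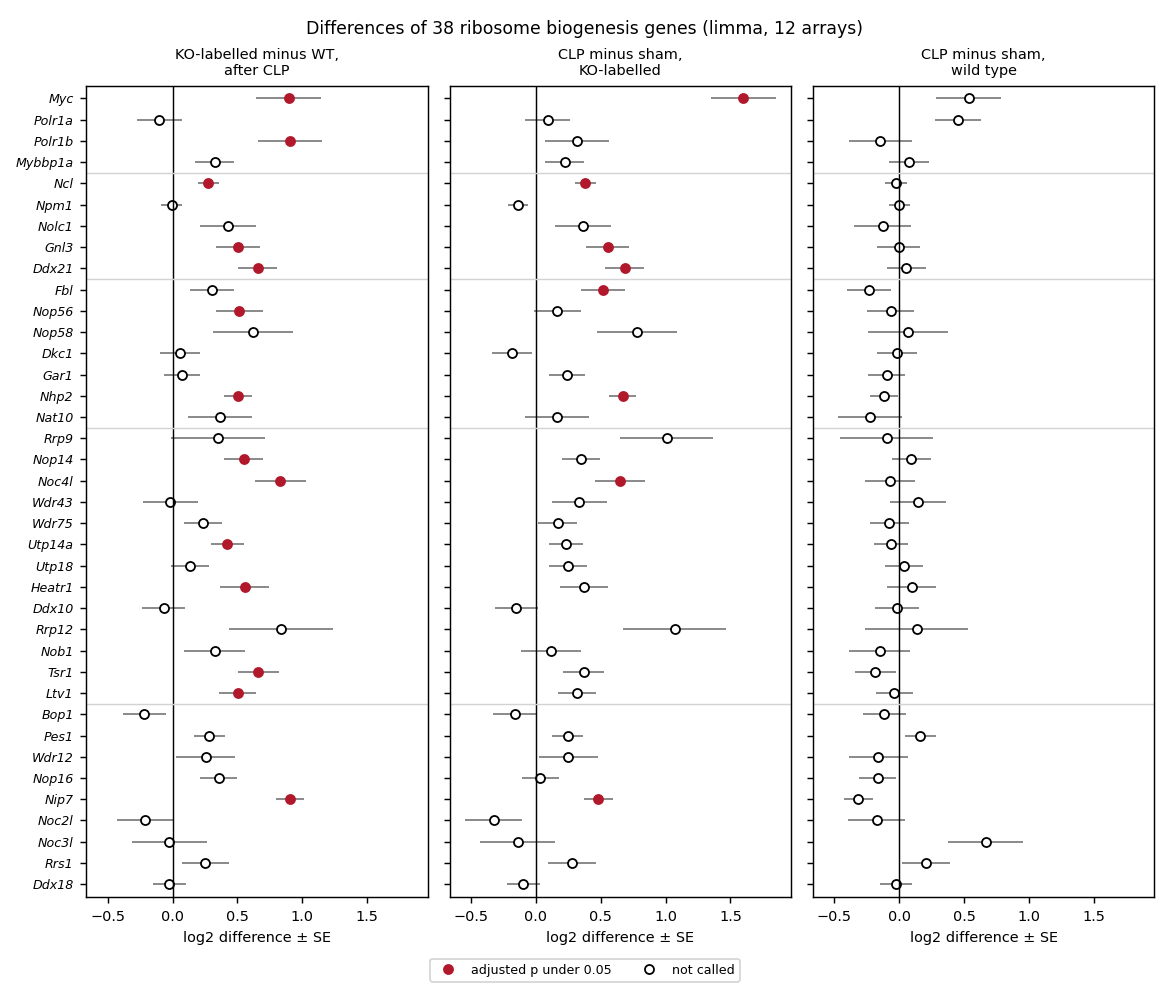
Log2 differences of the 38 members with standard errors (horizontal axis) in 3 comparisons: knockout-labelled (KO-labelled) minus wild type (WT) after CLP, CLP minus sham in knockout-labelled lung, and CLP minus sham in wild-type lung. Filled points have an adjusted p under 0.05, and grey lines separate the functional groups. Filled points number 14, 8 and 0 in the panels from left to right, and all lie right of 0.

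Averaged over the 38 members and set against the wild-type sham mean, the log2 level was 0.22, 0.29 and 0.53 on the 3 knockout-labelled CLP arrays and 0.13, 0.19 and -0.23 on the 3 knockout-labelled sham arrays. It was 0.09, -0.004 and -0.09 on the wild-type CLP arrays and -0.01, 0.02 and -0.01 on the wild-type sham arrays. All 3 knockout-labelled CLP arrays were above the other 9, and knockout-labelled sham array 3 was below the other 11. The gap from 0.19 on knockout-labelled sham array 2 to 0.22 on knockout-labelled CLP array 1 was narrow. It was smaller than the spread of this mean between replicate arrays, 0.148. The members spread more between arrays in knockout-labelled lung, with a median SD of 0.22 after CLP and 0.26 after sham on the log2 scale, than in wild-type lung, with 0.15 after CLP and 0.11 after sham.

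**Figure D2:**
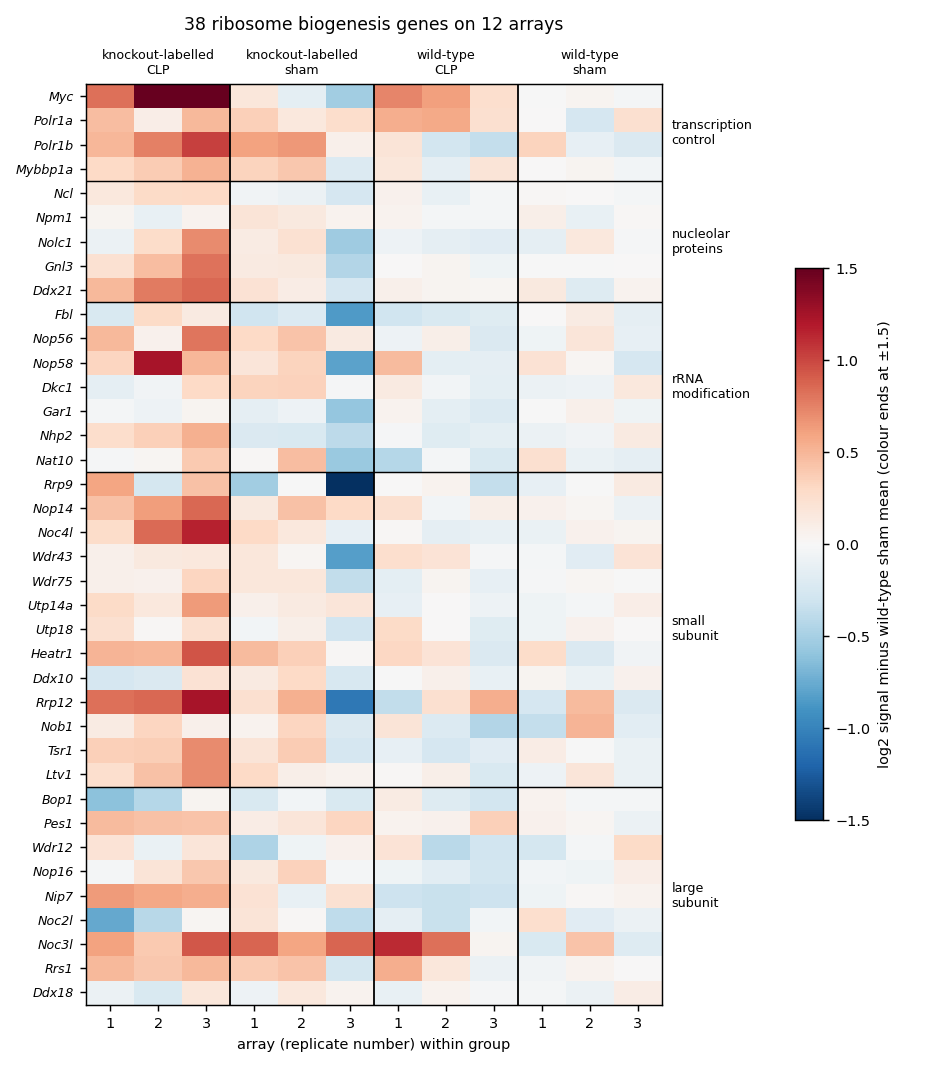
Each cell is 1 member (rows, in functional groups) on 1 array (columns, replicate number within the 4 groups), coloured by log2 signal minus the wild-type sham mean of that gene, with the colour scale ending at ±1.5. The knockout-labelled CLP columns are the reddest, with array 3 the highest of its group for 31 members, and knockout-labelled sham array 3 is the bluest column, the lowest of its group for 29.

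The promoters of 4 members are printed here: those of Nip7 and Nhp2 because their responses differed between the genotypes, and those of Tsr1 and Ltv1 because they are the called members whose promoter holds CACGTG, the E-box bound by Myc with Max. The windows run from 250 bases before to 50 bases after the RefSeq start (build GRCm38.p6), 5′ to 3′ on the gene's strand. Capitals mark CACGTG, which reads the same on both strands. Nip7 lies at chr8:107056627-107056926 on the plus strand, Nhp2 at chr11:51619523-51619822 on the plus strand, Tsr1 at chr11:74897830-74898129 on the plus strand and Ltv1 at chr10:13193088-13193387 on the minus strand.
Nip7: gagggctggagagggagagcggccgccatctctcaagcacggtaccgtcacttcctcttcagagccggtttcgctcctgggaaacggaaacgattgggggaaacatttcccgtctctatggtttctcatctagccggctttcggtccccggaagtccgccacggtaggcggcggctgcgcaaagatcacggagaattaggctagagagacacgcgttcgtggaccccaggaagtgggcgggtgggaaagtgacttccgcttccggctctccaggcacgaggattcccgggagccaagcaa
Nhp2: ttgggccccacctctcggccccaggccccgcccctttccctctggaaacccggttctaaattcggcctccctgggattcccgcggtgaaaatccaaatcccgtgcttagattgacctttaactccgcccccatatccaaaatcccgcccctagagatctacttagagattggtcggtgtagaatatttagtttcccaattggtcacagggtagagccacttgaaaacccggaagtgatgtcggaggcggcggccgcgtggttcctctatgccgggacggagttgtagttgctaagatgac
Tsr1: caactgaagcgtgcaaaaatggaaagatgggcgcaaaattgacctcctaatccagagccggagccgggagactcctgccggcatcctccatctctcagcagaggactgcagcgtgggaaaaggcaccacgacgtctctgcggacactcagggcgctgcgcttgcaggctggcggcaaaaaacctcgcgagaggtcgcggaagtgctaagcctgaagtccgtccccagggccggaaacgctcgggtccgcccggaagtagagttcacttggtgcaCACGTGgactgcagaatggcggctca
Ltv1: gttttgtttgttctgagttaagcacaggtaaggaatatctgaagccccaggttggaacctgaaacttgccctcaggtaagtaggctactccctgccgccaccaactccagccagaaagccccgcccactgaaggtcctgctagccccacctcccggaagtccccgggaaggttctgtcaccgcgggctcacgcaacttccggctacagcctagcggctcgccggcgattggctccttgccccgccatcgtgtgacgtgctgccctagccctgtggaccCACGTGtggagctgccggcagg

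The E-box starts 24 bases after the start site in Tsr1 and 28 bases after it in Ltv1, and these letters are not in the windows of Nip7 and Nhp2. A promoter window was found for 32 of the 38 members, and 6 of these 32 (18.8%) held CACGTG: Ltv1, Tsr1, Mybbp1a, Pes1, Utp18 and Wdr43. The share was 8.09% of 27025 genes in the RefSeq table and 8.91% of its 17492 protein-coding genes. It was 2 of 13 members (15.4%) called higher in either comparison of knockout-labelled CLP lung and 4 of 19 (21.1%) of the members not called. A match in the letters is no measure of binding.

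Of the genes that control ribosomal RNA synthesis, Myc had the largest difference between CLP and sham in knockout-labelled lung of any member. Myc read 111, 207 and 217 in knockout-labelled CLP lungs, 69.2, 55.1 and 41.5 in knockout-labelled sham lungs, 104, 95.7 and 73.7 in wild-type CLP lungs and 60.9, 62.8 and 59.9 in wild-type sham lungs. The knockout-labelled CLP arrays did not overlap any other group, and the wild-type CLP arrays all lay above the wild-type sham arrays. Myc rose 3.03-fold after CLP in knockout-labelled lung, a log2 difference of 1.60 ± 0.25 (SE, adjusted p = 0.00089). In wild-type lung the difference was 0.53 ± 0.25 (SE, adjusted p = 0.60), which did not pass the threshold. The responses differed by 1.06 ± 0.35 (SE, adjusted p = 0.10), so a difference between the genotypes was not shown, with a 95% interval of 0.30 to 1.83. After CLP Myc was 1.86-fold higher in knockout-labelled than in wild-type lung, at 0.90 ± 0.25 (SE, adjusted p = 0.018), and the adjusted p was 0.071 to 0.075 without knockout-labelled CLP array 2 or 3 or wild-type CLP array 3. As all values come from whole lung, more RNA per cell and more cells of a type that holds the RNA cannot be told apart.

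Polr1a and Polr1b encode the 2 largest subunits of RNA polymerase I. Polr1b read 48.9, 58.9 and 71.5 in knockout-labelled CLP lungs, 52.6, 54.4 and 35.6 in knockout-labelled sham lungs, 38.8, 27.0 and 25.5 in wild-type CLP lungs and 43.1, 30.6 and 28.4 in wild-type sham lungs. After CLP it was 1.87-fold higher in knockout-labelled lung, 0.91 ± 0.25 (SE, adjusted p = 0.015), with no overlap between the groups. This call was lost, at adjusted p of 0.059 to 0.060, without knockout-labelled CLP array 3 or without wild-type CLP array 2 or 3. Between knockout-labelled CLP and sham the arrays of Polr1b overlapped and the difference was 0.32 ± 0.25 (SE, adjusted p = 0.35). Polr1a read 87.4, 67.1 and 88.5 in knockout-labelled CLP lungs, 81.0, 69.7 and 75.7 in knockout-labelled sham lungs, 92.3, 94.3 and 74.4 in wild-type CLP lungs and 62.8, 51.9 and 74.1 in wild-type sham lungs. Its wild-type CLP arrays all lay above the wild-type sham arrays, but the log2 difference of 0.45 had an adjusted p of 0.43. Mybbp1a, a nucleolar protein of ribosomal RNA transcription and processing, was not called in any comparison, with 0.32 (adjusted p = 0.13) between the genotypes after CLP.

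**Figure D3:**
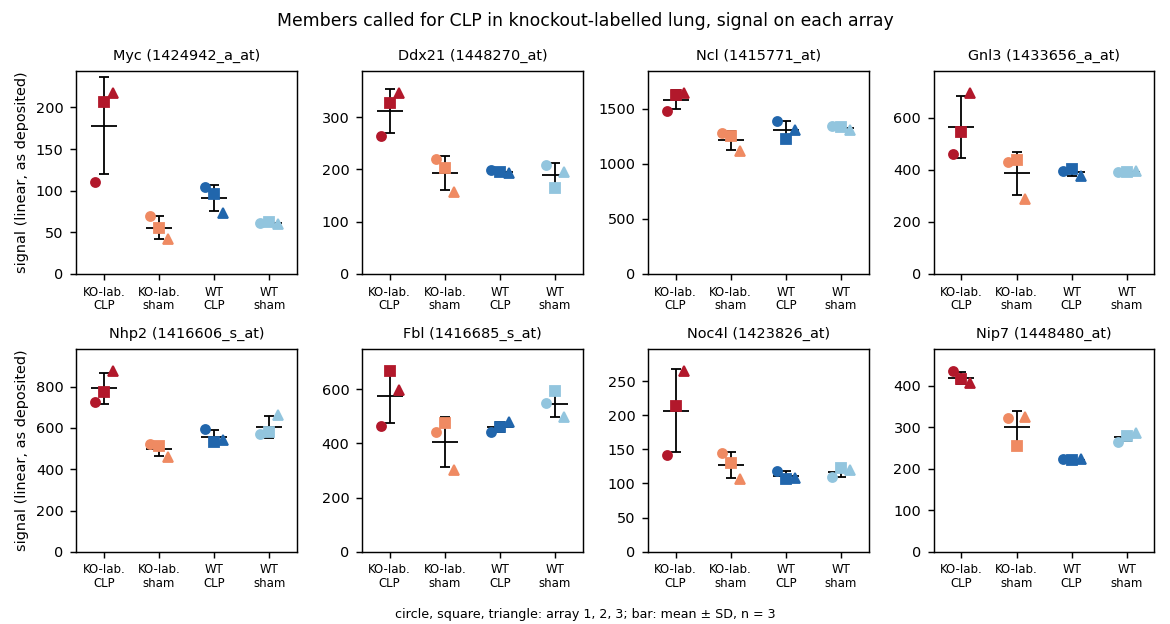
Deposited linear signal (vertical axis, from 0) of the 8 members called between CLP and sham in knockout-labelled lung, on each of the 12 arrays, with the mean and SD of the 3 arrays of a group as bars (KO-lab., knockout-labelled, and WT, wild type). In all 8 panels the knockout-labelled CLP mean is the highest of the 4 groups, and for Myc, Ddx21, Ncl, Gnl3, Nhp2 and Nip7 all 3 of its arrays lie above every other array.

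Among the nucleolar phosphoproteins, helicases and GTPases, 3 of 5 members were called higher in both comparisons of knockout-labelled CLP lung. The shares of all genes were 11.4% in the response and 13% between the genotypes after CLP. Ddx21, an RNA helicase of the nucleolus that acts in transcription and processing of ribosomal RNA, read 264, 326 and 346 in knockout-labelled CLP lungs, 219, 203 and 157 in knockout-labelled sham lungs, 199, 194 and 192 in wild-type CLP lungs and 209, 164 and 195 in wild-type sham lungs. All 3 knockout-labelled CLP arrays stood above the other 9. Ddx21 rose 1.61-fold after CLP in knockout-labelled lung, 0.68 ± 0.15 (SE, adjusted p = 0.0056), and was 1.58-fold higher than in wild-type lung after CLP, 0.66 ± 0.15 (SE, adjusted p = 0.0066). Both calls were kept with each of the 12 arrays left out in turn and lost when its probe sets were averaged, with adjusted p of 0.063 and 0.16. The wild-type response was 0.05, and the difference between the responses was 0.63 ± 0.21 (SE, adjusted p = 0.11).

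Ncl, nucleolin, binds ribosomal RNA and its chromatin. It read 1481, 1625 and 1642 in knockout-labelled CLP lungs, 1278, 1254 and 1117 in knockout-labelled sham lungs, 1390.2, 1228 and 1304 in wild-type CLP lungs and 1348, 1338 and 1303 in wild-type sham lungs. The gap was small but wider than the spread between arrays, at 0.38 ± 0.08 (SE, adjusted p = 0.0052) after CLP in knockout-labelled lung and 0.28 ± 0.08 (SE, adjusted p = 0.025) between the genotypes after CLP. Another 2 probe sets of Ncl disagreed with each other: after CLP in knockout-labelled lung 1 was called higher, with 0.60, and 1 was called lower, with -0.62. Between the genotypes after CLP the same probe sets differed by 0.59 and -0.44, both called. The direction of Ncl thus depended on the probe set, and the cause was not tested.

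Gnl3, nucleostemin, is a GTPase of precursor RNA processing. It read 460.5, 544 and 695 in knockout-labelled CLP lungs, 432, 437 and 289.8 in knockout-labelled sham lungs, 397, 405 and 376 in wild-type CLP lungs and 392, 393 and 397 in wild-type sham lungs. The difference after CLP was 0.55 ± 0.17 (SE, adjusted p = 0.027) in knockout-labelled lung and was not called without knockout-labelled sham array 3 or knockout-labelled CLP array 2 or 3. Between the genotypes after CLP it was 0.51 ± 0.17 (SE, adjusted p = 0.038), a call that held with only 4 of the 12 arrays left out. Npm1, nucleophosmin, and Nolc1, a chaperone of snoRNPs, were not called in any comparison. Npm1 read 1839, 1655 and 1847 in knockout-labelled CLP lungs, 2041, 1979.5 and 1861 in knockout-labelled sham lungs, 1856, 1755 and 1757 in wild-type CLP lungs and 1897, 1659.7 and 1812 in wild-type sham lungs. Its log2 difference after CLP was -0.14 (adjusted p = 0.19) in knockout-labelled lung. Nolc1 read 138, 178 and 243 in knockout-labelled CLP lungs, 159.8, 172 and 100.5 in knockout-labelled sham lungs, 139, 133 and 130.3 in wild-type CLP lungs and 133, 164 and 144 in wild-type sham lungs. Its groups overlapped, at 0.36 (adjusted p = 0.23) in knockout-labelled lung.

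Of the 7 proteins that modify ribosomal RNA, Nhp2 and Fbl were called higher in the knockout-labelled response, and Nhp2 and Nop56 between the genotypes after CLP. In these comparisons 11.4% and 13% of all genes were called higher. Nhp2, a core protein of the box H/ACA snoRNPs that turn uridine into pseudouridine, read 726, 774 and 875 in knockout-labelled CLP lungs, 519.9, 512 and 457 in knockout-labelled sham lungs, 596, 531 and 542 in wild-type CLP lungs and 569, 581 and 664 in wild-type sham lungs. The knockout-labelled CLP arrays were the 3 highest of the 12 and the knockout-labelled sham arrays the 3 lowest. Nhp2 rose 1.59-fold after CLP in knockout-labelled lung, 0.67 ± 0.11 (SE, adjusted p = 0.00093), while the wild-type difference was -0.12 (adjusted p = 0.88). The 2 responses differed by 0.78 ± 0.15 (SE, adjusted p = 0.020), and after CLP the genotypes differed by 0.50 ± 0.11 (SE, adjusted p = 0.0041). The interaction was not called without wild-type CLP array 2 or 3 or wild-type sham array 2 or 3, with adjusted p of 0.051 to 0.070, and the other 2 comparisons kept their calls with every array left out. This probe set carries the suffix that marks possible matches to further transcripts. A second Nhp2 probe set without it gave 0.75 for the response, 0.76 for the interaction and 0.60 between the genotypes after CLP, and all 3 were called.

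Dkc1, the pseudouridine synthase, and Gar1, its partner in the same particles, were not called: the differences after CLP in knockout-labelled lung were -0.18 and 0.24. A second Dkc1 probe set was called lower there, with -0.51. Fbl, the methyltransferase of the box C/D snoRNPs, read 465, 667 and 598 in knockout-labelled CLP lungs, 443, 474 and 300.5 in knockout-labelled sham lungs, 443, 462 and 479.6 in wild-type CLP lungs and 548, 594 and 496 in wild-type sham lungs. The knockout-labelled groups overlapped by 1 array, and all 3 wild-type sham arrays read above the lowest knockout-labelled CLP array. The difference of 0.51 ± 0.17 (SE, adjusted p = 0.038) held its call with 5 of the 12 arrays left out and had an adjusted p of 0.099 without knockout-labelled sham array 3. Between the genotypes after CLP Fbl differed by 0.30 (adjusted p = 0.20).

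Nop56 and Nop58 are the core proteins that sit beside Fbl. Nop56 read 176, 129 and 218 in knockout-labelled CLP lungs, 153, 167 and 137 in knockout-labelled sham lungs, 118, 132 and 106 in wild-type CLP lungs and 119, 141 and 113 in wild-type sham lungs. It was called higher in knockout-labelled lung after CLP by 0.52 ± 0.18 (SE, adjusted p = 0.047), with overlapping arrays, and the call was kept with only 2 of the 12 arrays left out. Nop58 differed by 0.78 (adjusted p = 0.074) after CLP in knockout-labelled lung, where knockout-labelled sham array 3 read less than the other 11 arrays. Nat10, which acetylates cytidine in ribosomal RNA, read 55.6, 57.7 and 75.1 in knockout-labelled CLP lungs, 57.3, 79.2 and 37.1 in knockout-labelled sham lungs, 41.0, 55.2 and 47.7 in wild-type CLP lungs and 67.1, 52.3 and 51.0 in wild-type sham lungs. Its differences were 0.16 (adjusted p = 0.66) in the knockout-labelled response and 0.36 (adjusted p = 0.29) between the genotypes after CLP.

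The small-subunit factors formed the largest group, 13 members, and 6 of them were called higher in knockout-labelled than in wild-type lung after CLP: Noc4l, Tsr1, Nop14, Ltv1, Utp14a and Heatr1. Of all genes 13% were called higher there. The median difference of the 13 in that comparison was 0.42, Rrp12 included, against -0.06 for all genes. For 8 of 13, Rrp12 among them, the knockout-labelled arrays lay wholly above the wild-type arrays, against 21.1% of all genes. Noc4l, whose yeast counterpart binds that of Nop14, read 142, 214 and 264 in knockout-labelled CLP lungs, 145, 131 and 107 in knockout-labelled sham lungs, 119, 107 and 108 in wild-type CLP lungs and 109, 122 and 120.2 in wild-type sham lungs. All 3 knockout-labelled CLP arrays were above the 6 wild-type arrays, and 1 of them fell just below the highest knockout-labelled sham array. Noc4l was 1.78-fold higher between the genotypes after CLP, 0.83 ± 0.20 (SE, adjusted p = 0.0074), a call kept with each array left out. Its response within knockout-labelled lung was 0.65 ± 0.20 (SE, adjusted p = 0.025) and was not called without knockout-labelled CLP array 2 or 3 or knockout-labelled sham array 2 or 3. A pair of further Noc4l probe sets gave 0.90 and 0.999 between the genotypes after CLP and 0.73 each for the response, and these were called.

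Nop14, part of the early small-subunit particle, read 109, 125 and 147 in knockout-labelled CLP lungs, 88.6, 109 and 98.5 in knockout-labelled sham lungs, 94.2, 77.0 and 84.7 in wild-type CLP lungs and 83.2, 81.1 and 74.5 in wild-type sham lungs. The groups after CLP did not overlap and differed by 0.55 ± 0.15 (SE, adjusted p = 0.016), which was lost without knockout-labelled CLP array 3 or wild-type CLP array 2. Tsr1, a late factor of small-subunit maturation, read 302, 306 and 386 in knockout-labelled CLP lungs, 270.2, 307 and 197 in knockout-labelled sham lungs, 215, 196 and 209 in wild-type CLP lungs and 255, 234 and 219 in wild-type sham lungs. The wild-type CLP arrays were the lowest of the wild-type set, and Tsr1 was 1.58-fold higher in knockout-labelled lung after CLP, 0.66 ± 0.16 (SE, adjusted p = 0.0085), a call kept with each array left out. Within knockout-labelled lung it differed by 0.37 (adjusted p = 0.099). Ltv1, another late factor, differed by 0.50 ± 0.14 (SE, adjusted p = 0.020) between the genotypes after CLP, with 295 to 407 in knockout-labelled CLP lungs against 212 to 264 in wild-type CLP lungs. That call was lost without knockout-labelled CLP array 3 or wild-type CLP array 3.

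Utp14a and Heatr1 belong to the small-subunit processome, the large particle that holds the early precursor. Utp14a read 206 to 286 in knockout-labelled CLP lungs against 168 to 185 in wild-type CLP lungs, a difference of 0.42 ± 0.13 (SE, adjusted p = 0.028). Heatr1 read 267 to 363 in knockout-labelled CLP lungs against 161 to 233 in wild-type CLP lungs, a difference of 0.55 ± 0.19 (SE, adjusted p = 0.042). Both lost their call in at least 4 of the 12 fits with an array left out, and Utp14a had an adjusted p of 0.56 when its probe sets were averaged.

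Of the remaining small-subunit factors none was called. Rrp9, a protein of the U3 snoRNP, differed by 1.01 (adjusted p = 0.053) after CLP in knockout-labelled lung, and Rrp12, which acts in subunit export, by 1.07 (adjusted p = 0.060). For both, knockout-labelled sham array 3 was the lowest of the 12, where Rrp9 read 16.4 against 42.8 and 62.4 on the other two, and Rrp12 read 9.26 against 28.2 and 35.4. Without that array their adjusted p was 0.14 and 0.17. Nob1, the nuclease that trims the end of the small-subunit RNA, read 104, 119 and 100.3 in knockout-labelled CLP lungs, 99.0, 120.1 and 81.5 in knockout-labelled sham lungs, 109, 81.6 and 69.3 in wild-type CLP lungs and 73.5, 137 and 84.8 in wild-type sham lungs. Ddx10, a helicase, read 111, 114 and 154 in knockout-labelled CLP lungs, 146, 164 and 111 in knockout-labelled sham lungs, 132, 139 and 122 in wild-type CLP lungs and 136, 123 and 139 in wild-type sham lungs. Their 4 groups overlapped, and the knockout-labelled responses were 0.12 (adjusted p = 0.74) for Nob1 and -0.15 (adjusted p = 0.53) for Ddx10. Wdr43, Wdr75 and Utp18 of the processome had differences between -0.02 and 0.23 between the genotypes after CLP.

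Of the 9 large-subunit factors 1 was called, and it had the smallest p of any member between the genotypes after CLP. That number is near the share of all genes called higher, 11.4% in the knockout-labelled response and 13% between the genotypes after CLP. Nip7, which in yeast is needed to process the large-subunit RNA, read 435, 415 and 407 in knockout-labelled CLP lungs, 322, 256 and 325 in knockout-labelled sham lungs, 223, 219.9 and 223 in wild-type CLP lungs and 265, 279 and 287 in wild-type sham lungs. The knockout-labelled CLP arrays were the 3 highest of the 12 and the wild-type CLP arrays the 3 lowest. Nip7 was 1.87-fold higher in knockout-labelled than in wild-type lung after CLP, 0.91 ± 0.11 (SE, adjusted p = 0.00014). It rose 1.4-fold after CLP in knockout-labelled lung, 0.48 ± 0.11 (SE, adjusted p = 0.0070), while in wild-type lung the difference ran the other way at -0.32 (adjusted p = 0.34). The responses differed by 0.80 ± 0.16 (SE, adjusted p = 0.022). That interaction was not called without knockout-labelled CLP array 2, any wild-type CLP array or any wild-type sham array, with adjusted p of 0.052 to 0.070, whereas the other 2 calls held with every array left out. The second Nip7 probe set gave 0.36 between the genotypes after CLP and 0.20 for the response, and neither was called.

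The other 8 large-subunit factors had differences after CLP between -0.33 and 0.28 within knockout-labelled lung and between -0.22 and 0.36 between the genotypes. Bop1, Pes1 and Wdr12, which form 1 complex on the large-subunit precursor, had knockout-labelled responses of -0.16, 0.24 and 0.25, and none was called. For Pes1 all 3 knockout-labelled CLP arrays (226 to 233) lay above all knockout-labelled sham arrays (181 to 209.5), at 0.24 (adjusted p = 0.14), while its second probe set was called lower with -0.54. Nop16 read 142, 166 and 193 in knockout-labelled CLP lungs, 160.2, 185 and 142 in knockout-labelled sham lungs, 138, 129 and 119 in wild-type CLP lungs and 141, 139 and 156 in wild-type sham lungs. The knockout-labelled groups overlapped (0.03 (adjusted p = 0.88)), and after CLP the knockout-labelled arrays lay above the wild-type arrays without a call (0.36 (adjusted p = 0.082)). Noc3l read 41.4, 35.3 and 53.2 in knockout-labelled CLP lungs, 51.0, 41.3 and 50.7 in knockout-labelled sham lungs, 61.2, 49.1 and 27.1 in wild-type CLP lungs and 21.7, 36.5 and 22.4 in wild-type sham lungs. Its wild-type sham arrays lay below both knockout-labelled groups except for 1 array, but neither the genotype difference after sham, 0.78 (adjusted p = 0.12), nor the wild-type response, 0.66 (adjusted p = 0.54), was called. Noc2l, Rrs1 and the helicase Ddx18 were not called either.

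Many members had further probe sets. Of 41 others, 31 in 23 genes passed the filter. For the knockout-labelled response 9 of these 31 were called higher and 3 lower, the 3 being those of Ncl, Dkc1 and Pes1 given above, and 24 had the same sign as the probe set used for the gene. Between the genotypes after CLP 9 were called higher and 1, of Ncl, lower, where 12.6% and 16.9% of all probe sets were. For the response the shares of all probe sets were 10.4% higher and 18.8% lower.

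Further assembly factors were read from lists that hold no member. Of all genes tested, 13% were called higher and 18.7% lower between the genotypes after CLP, and 11.4% and 19.9% in the knockout-labelled response. Of 38 other small-subunit factors, 10 were called higher and 0 lower in knockout-labelled than in wild-type lung after CLP, with Nol11 at 0.62 (adjusted p = 0.0038), Pno1, the partner of Nob1, at 0.49 (adjusted p = 0.0042), Tbl3 at 0.66 (adjusted p = 0.0070) and Dcaf13 at 0.41 (adjusted p = 0.0078). In the knockout-labelled response 7 were called higher and 0 lower, with 4 to 7 higher when an array was left out. The number was 4 without knockout-labelled CLP array 2 or 3 or knockout-labelled sham array 2, when 8.36%, 9.03% and 8.79% of all genes were. It was 0 when the knockout-labelled groups were fitted alone, when 5.16% were. Of 50 other large-subunit factors 13 were called higher and 2 lower between the genotypes after CLP. Rbm28, of large-subunit assembly, was at 0.98 (adjusted p = 0.00010) there and at 1.36 (adjusted p = 1.1e-05) already after sham, and the GTPase Lsg1 was at 0.71 (adjusted p = 0.0017). Zfp622, with -0.52 (adjusted p = 0.0057), and Senp3, with -0.42 (adjusted p = 0.019), were the 2 called lower. In the knockout-labelled response 6 of the 50 large-subunit factors were called higher, a share close to the 11.4% of all genes. The number was 3 without knockout-labelled CLP array 2 or sham array 1, when 8.36% and 9.46% of all genes were called higher. It was 1 with the knockout-labelled groups fitted alone, when 5.16% were. Among the 6 were Rrp15 at 0.92 (adjusted p = 0.0036) and Eif6, which keeps the large subunit from joining early, at 0.57 (adjusted p = 0.0054). Rbm28 was the 1 called lower, at -0.66 (adjusted p = 0.0015), reading 399.8, 393 and 350.4 in knockout-labelled CLP lungs, 612, 663 and 541 in knockout-labelled sham lungs, 176, 196 and 204 in wild-type CLP lungs and 251, 224 and 225 in wild-type sham lungs. With 1 array left out the number called higher between the genotypes after CLP was 5 to 11 for the small-subunit list. It was 5 without wild-type CLP array 1, when 9.61% of all genes were called higher. For the large-subunit list the number was 5 to 17. It was 5 without knockout-labelled CLP array 3, 7 without wild-type CLP array 2 and 6 without wild-type CLP array 3. Of all genes 9.52%, 8.7% and 9.21% were called higher without these arrays.

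Of 14 tested genes of RNA polymerase I and its factors 1 was called in each direction in the knockout-labelled response, where 11.4% of all genes were called higher and 19.9% lower: Polr1d at 0.37 (adjusted p = 0.016) was higher and Ubtf, which opens the ribosomal DNA for the polymerase, was lower at -0.41 (adjusted p = 0.0051). Ubtf read 317, 289.9 and 306 in knockout-labelled CLP lungs, 417, 409.8 and 393 in knockout-labelled sham lungs, 424, 443 and 444 in wild-type CLP lungs and 412, 444 and 439 in wild-type sham lungs. The knockout-labelled CLP arrays were the 3 lowest of the 12, and the genotypes differed after CLP by -0.52 (adjusted p = 0.0013). Of 8 other snoRNP genes 3 were called lower (Nop10 at -0.44 (adjusted p = 0.0094), Pih1d1 at -0.41 (adjusted p = 0.029) and Ruvbl2 at -0.66 (adjusted p = 0.039)) and 1 higher (Znhit3 at 0.43 (adjusted p = 0.026)) in the knockout-labelled response. With 1 array left out the number of polymerase genes called higher was 0 (without knockout-labelled CLP array 2 or sham array 2) to 3 (without knockout-labelled sham array 3). The number of snoRNP genes called lower was 1 (without knockout-labelled sham array 1) to 4 (without knockout-labelled sham array 3), and the number called higher was 0 without knockout-labelled CLP array 1 or 2 or sham array 2. With each array centred on its median no gene of these 2 lists was called lower in that response.

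In the exosome, the nuclease that trims ribosomal RNA ends, 5 of 12 genes were called higher and 1 lower between the genotypes after CLP. Of all genes 13% were called higher and 18.7% lower. The number higher was 3 without knockout-labelled CLP array 3 or any 1 of the wild-type CLP arrays, when 8.7% to 9.61% of all genes were. Exosc1 read 304, 261 and 282 in knockout-labelled CLP lungs, 195, 189 and 253 in knockout-labelled sham lungs, 39.6, 60.4 and 27.7 in wild-type CLP lungs and 111, 71.3 and 76.9 in wild-type sham lungs. All knockout-labelled arrays were above all wild-type arrays, with 2.69 (adjusted p = 1.3e-05) after CLP and 1.28 (adjusted p = 0.0055) after sham, and the responses differed by 1.42 (adjusted p = 0.039), a call that held in 3 of the 12 fits with an array left out. Exosc3 was at 0.76 (adjusted p = 0.0028), Dis3, a catalytic subunit, at 0.53 (adjusted p = 0.0076), and Exosc9, the one called lower, at -0.60 (adjusted p = 0.0076) after CLP. In the knockout-labelled response Dis3 was called higher, at 0.58 (adjusted p = 0.0049), and Mtrex, the helicase that feeds the exosome, lower, at -0.38 (adjusted p = 0.027).

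Of 43 tested ribosomal proteins 6 were called higher and 0 lower in the knockout-labelled response, where 11.4% of all genes were called higher, led by Fau at 0.30 (adjusted p = 0.0039), Rps2 at 0.19 (adjusted p = 0.015), Rpl6 at 0.23 (adjusted p = 0.016) and Rpl8 at 0.35 (adjusted p = 0.024). This count depended on the arrays and the scaling. It was 36 with centred arrays (23.7% of all genes higher), 18 without knockout-labelled sham array 3 (14.5%) and 2, with 1 lower, both without knockout-labelled sham array 1 (9.46%) and under quantile normalisation (12.2%). It was 3 without knockout-labelled CLP array 2 or sham array 2. Between the genotypes after CLP 3 of the 43 were called higher, against 13% of all genes. They were Rps6 at 1.31 (adjusted p = 1.5e-05), Rplp0 at 0.81 (adjusted p = 2.7e-05) and Rpl14 at 1.67 (adjusted p = 0.00015). The number was 3 or 4 with each array left out. The same 3 were called higher after sham, at 1.27, 0.67 and 1.57, against 4.87% of all genes. Rps6 read 349.9, 339 and 346 in knockout-labelled CLP lungs, 329, 352 and 367 in knockout-labelled sham lungs, 116, 156 and 142 in wild-type CLP lungs and 141, 149 and 140.2 in wild-type sham lungs. All 6 knockout-labelled arrays read above all 6 wild-type arrays, and neither response was called.

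**Figure D4:**
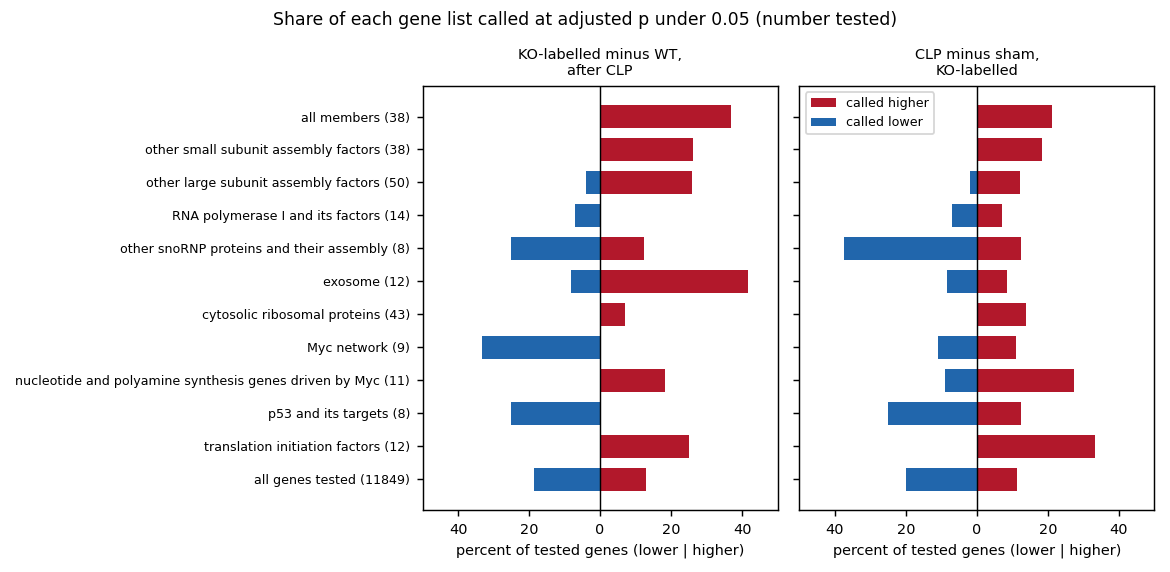
Percent of each gene list called higher (right of 0) or lower (left of 0) at an adjusted p under 0.05, between knockout-labelled (KO-labelled) and wild-type (WT) lung after CLP and between CLP and sham in knockout-labelled lung, with the number of genes tested in parentheses. The 38 members and the other small-subunit factors have bars to the right only in both panels, while all tested genes have the longer bar to the left.

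Around Myc, its antagonist Mxd1, which competes for Max, had larger log2 differences between CLP and sham than Myc in both genotypes, and after CLP it differed by 0.39 (adjusted p = 0.37) between the genotypes. Mxd1 read 422, 789.6 and 1249 in knockout-labelled CLP lungs, 106, 124 and 178 in knockout-labelled sham lungs, 591, 489 and 639 in wild-type CLP lungs and 157, 115 and 145 in wild-type sham lungs. It rose in both genotypes, by 2.46 ± 0.31 (SE, adjusted p = 0.00026) in knockout-labelled and 2.02 ± 0.31 (SE, adjusted p = 0.0098) in wild-type lung, and no difference between the responses was called (0.44 (adjusted p = 0.59)). The wild-type rise was called in 10 of the 12 fits with an array left out and had an adjusted p of 0.073 without wild-type CLP array 3. In the knockout-labelled response Mnt, a related repressor, was called lower at -0.39 (adjusted p = 0.049), which held in 2 of those 12 fits. After CLP Mnt at -0.48 (adjusted p = 0.019), Mxd4 at -0.74 (adjusted p = 0.023) and Max at -0.48 (adjusted p = 0.045) were called lower in knockout-labelled than in wild-type lung, 3 of 9 genes, and 0 of them without wild-type CLP array 2.

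Of 11 genes of nucleotide and polyamine synthesis known as Myc targets, 3 were called higher and 1 lower in the knockout-labelled response. Of all genes 11.4% were called higher and 19.9% lower. The number higher was 2 without knockout-labelled sham array 1 or 2, when 9.46% and 8.79% of all genes were. It was 5 without knockout-labelled CLP array 1, when 12.4% were. Odc1, the rate-limiting enzyme of polyamine synthesis, read 1309, 1678 and 1978 in knockout-labelled CLP lungs, 902, 1003 and 908 in knockout-labelled sham lungs, 1058, 944 and 1056 in wild-type CLP lungs and 1029, 928 and 1085 in wild-type sham lungs. It rose by 0.80 ± 0.13 (SE, adjusted p = 0.0011), and its response differed between the genotypes by 0.79 ± 0.18 (SE, adjusted p = 0.035), a call that held in 3 of the 12 fits with an array left out. Ctps, which makes CTP, read 529, 1184 and 1451 in knockout-labelled CLP lungs, 353, 382 and 354 in knockout-labelled sham lungs, 328, 287 and 281 in wild-type CLP lungs and 301, 315 and 266 in wild-type sham lungs, a rise of 1.41 ± 0.27 (SE, adjusted p = 0.0026) in knockout-labelled lung. Nme2 was at 0.33 (adjusted p = 0.019) and Cad, of pyrimidine synthesis, was called lower at -0.51 (adjusted p = 0.023). After CLP Ctps at 1.69 (adjusted p = 0.00076) and Odc1 at 0.68 (adjusted p = 0.0024) were higher in knockout-labelled than in wild-type lung.

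Of 12 translation initiation factors 4 were called higher and 0 lower in the knockout-labelled response: Eif1a at 0.73 (adjusted p = 0.00085), the helicase Eif4a1 at 0.50 (adjusted p = 0.00088), Eif2s2 at 0.42 (adjusted p = 0.0030) and Eif5a at 0.22 (adjusted p = 0.014). Of all genes 11.4% were called higher and 19.9% lower. The count of 4 higher was the same with each array left out, when 8.36% to 14.5% of all genes were called higher. Eif4a1 read 2981, 2943 and 3531 in knockout-labelled CLP lungs, 2189, 2198 and 2286 in knockout-labelled sham lungs, 2125, 2068 and 2113 in wild-type CLP lungs and 2051, 1874 and 1969 in wild-type sham lungs. All 3 knockout-labelled CLP arrays stood above the other 9. Among 8 genes of p53, which faulty ribosome assembly is known to activate, Gadd45a, a growth arrest gene, rose in both genotypes, by 1.12 (adjusted p = 0.0022) in knockout-labelled and 1.05 (adjusted p = 0.036) in wild-type lung, and without wild-type CLP array 3 the wild-type value had an adjusted p of 0.20. Bbc3, which promotes cell death, fell in knockout-labelled lung, at -0.92 (adjusted p = 0.0022), as did Ccng1, at -0.36 (adjusted p = 0.031). After CLP Bbc3 at -0.70 (adjusted p = 0.0084) and Phlda3 at -0.72 (adjusted p = 0.020) were lower in knockout-labelled than in wild-type lung. Thus 2 of 8 p53 genes were called lower in each comparison, against 19.9% and 18.7% of all genes. With 1 array left out the number was 1 to 3 in each.

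Markers of other cells also differed between the groups, in several cases not in the pattern of the members. For scale, 11.4% of all genes were called higher and 19.9% lower in the knockout-labelled response, and 13% and 18.7% between the genotypes after CLP. Of 10 markers of dividing cells 9 were on the array and 8 were tested, and after CLP Mki67, Top2a, Ccna2 and Birc5 were called higher and Mcm2 lower in knockout-labelled than in wild-type lung. Without knockout-labelled CLP array 3 the number higher was 2. Their summed signal was 758 to 1261 in knockout-labelled CLP lungs, 693 to 872 in knockout-labelled sham lungs, 666 to 852 in wild-type CLP lungs and 739 to 870.0 in wild-type sham lungs. Of 7 markers of granulocyte precursors only Ngp, Camp and Ltf were tested, and all 3 were called higher in both comparisons of knockout-labelled CLP lung. In the wild-type response 2 of the 3 were also called higher, against 1.1% of all genes. The interaction was called for all 3, with the larger response in knockout-labelled lung, against 1.86% of all genes. After sham 2 of them were called lower in knockout-labelled than in wild-type lung, against 3.88%. The other markers, Elane, Mpo, Prtn3 and Ctsg, did not pass the filter on low signal. The 7 summed to 12383 to 16415 in knockout-labelled CLP lungs and 592 to 1054 in knockout-labelled sham lungs, mostly from the 3 tested. In wild-type lungs they summed to 3607 to 4897 after CLP and 941 to 1575 after sham. The mature neutrophil markers, 8 of 10 on the array, summed to 31479 to 34766 in knockout-labelled CLP lungs. In knockout-labelled sham lungs they summed to 10177 and 14455 on arrays 1 and 2 and to 26408 on array 3. The sum was 32609 to 35538 in wild-type CLP lungs and 8567 to 14832 in wild-type sham lungs. The alveolar macrophage markers, 7 of 8 on the array, summed to 9224 to 9949 in knockout-labelled CLP lungs and 3469 to 10160 in knockout-labelled sham lungs, with array 3 the highest. In wild-type lungs they summed to 3967 to 4086 after CLP and 3846 to 4124 after sham. Chil3 alone read 5827 to 6276 in knockout-labelled CLP lungs and 6048 on knockout-labelled sham array 3. Of the 7, 4 were called higher and 1 lower between the genotypes after CLP, 2 higher in the knockout-labelled response and 1 higher already after sham. The monocyte markers, 4 of 5 on the array, summed to 2832 to 3664 in knockout-labelled CLP lungs and 2028 to 3378 in knockout-labelled sham lungs, again with array 3 the highest. In wild-type lungs they summed to 1877 to 1970 after CLP and 1607 to 1623 after sham. Ccr2 and F13a1 were called higher in knockout-labelled than in wild-type lung after CLP, while Cx3cr1 was at -0.53 without a call. In the knockout-labelled response 1 of the 4 was called higher and 1, Cx3cr1, lower at -1.455. Cx3cr1 read 41.2, 27.0 and 13.6 in knockout-labelled CLP lungs and 68.9, 53.1 and 113 in knockout-labelled sham lungs. Already after sham 1 monocyte marker was called higher in knockout-labelled lung.

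Several markers of structural cells were called lower in knockout-labelled CLP lung, and some were lower than in wild-type lung already after sham. The 5 fibroblast markers summed to 6975 to 9173 in knockout-labelled CLP lungs, 8820 to 10801 in knockout-labelled sham lungs, 11181 to 11645 in wild-type CLP lungs and 10857 to 12293 in wild-type sham lungs. Col1a1, Col1a2 and Col3a1 were called lower both in the knockout-labelled response and between the genotypes after CLP, and in the response Dcn was called lower and Pdgfra higher. The 5 endothelial markers summed to 7838 to 8259 in knockout-labelled CLP lungs, 7215 to 8578 in knockout-labelled sham lungs, 10451 to 10611 in wild-type CLP lungs and 9789 to 10298 in wild-type sham lungs, with Kdr and Tek called lower in both comparisons. Of 5 alveolar type 2 markers Sftpc, Sftpb and Abca3 were called lower in knockout-labelled than in wild-type lung after CLP, and Abca3 also in the response. After sham 2 of 5 alveolar type 2 and 1 of 5 fibroblast markers were called lower in knockout-labelled lung, against 3.88% of all genes. None of the 5 endothelial markers was called there, and none of their differences was above 0. In the knockout-labelled response 4 of 5 alveolar type 2 and 3 of 5 endothelial markers had differences above 0. Among lymphocyte markers Cd79a of B cells was called lower in both comparisons, and Lat of T cells between the genotypes after CLP. No marker was listed at 0 on any array. The ratio of 3′ to 5′ actin signal, a sign of RNA quality, was 1.28 to 1.45 in knockout-labelled CLP lungs, 1.47 to 1.59 in knockout-labelled sham lungs, 1.47 to 1.63 in wild-type CLP lungs and 1.49 to 1.53 in wild-type sham lungs. The same ratio for Gapdh was 0.678 to 0.843 in knockout-labelled CLP lungs, 0.729 to 0.799 in knockout-labelled sham lungs, 0.857 to 0.913 in wild-type CLP lungs and 0.8004 to 0.832 in wild-type sham lungs. The part of these cells and of RNA quality in the members' differences was not tested.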

How the data were processed

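Expression was measured in whole mouse lung on 12 one-colour Affymetrix arrays, 3 in each of 4 groups taken from the labels. The deposited table holds 1 intensity per probe set and array, on a linear scale and without detection calls. GCOS, MAS5 and the Affymetrix Expression Console are named, without versions or roles, in the submitters' processing notes. The mean after trimming 2% at each end was 150.001 on every array, so the deposited intensities had been scaled to a common target. Array medians ran from 31.1 to 38.6, and the number of arrays limits the precision.

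Of 45101 probe sets, 64 controls were left out. The platform annotation gave 1 symbol for 34945 of the remaining 45037, several for 932 and none for 9160, and 34943 of the 1-symbol probe sets matched a RefSeq gene (GRCm38.p6). Intensities were used as log2(signal + 3.47), the pseudocount being 10% of the median array median. Such differences understate the change of dim genes. The filter kept 24574 probe sets whose signal exceeded the median of the array on 3 or more of the 12 arrays. They were fitted in R 4.3.3 by limma 3.58.1, with 4 group means, an intensity trend and Benjamini-Hochberg adjustment within each comparison. The same procedure was checked on simulated data. Genes were counted by the probe set with the highest mean signal (11849 genes). Folds are 2 to the power of these log2 differences.

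The members, gene lists, markers and tests were chosen with earlier results of these data known. Values on every array were given for Myc, for up to 8 called members with the smallest p in each comparison, and for 2 members of each role with the largest p in the knockout-labelled response. Of each other list, up to 4 called genes with the smallest p and any called against the list's majority were named. The markers of dividing cells and the further probe sets were named after their values were seen. Alternatives covered scaling, pseudocount, filter, trend, robust moderation, array weights, probe set choice, a replicate block, fits to 2 groups, and each array left out.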

Additional observations from a re-analysis of the deposited data

Results flagged for a closer look

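The CLP response differed between the genotypes, by limma's interaction term over all probe sets, for 2 of the 38 members. The difference of the responses (knockout-labelled minus wild type) was 0.78 (adjusted p = 0.020) for Nhp2 and 0.80 (adjusted p = 0.022) for Nip7 on the log2 scale. Within the gene lists of the pathway it was also called for Exosc1 at 1.42 (adjusted p = 0.039), for Odc1 at 0.79 (adjusted p = 0.035) and for Eif1a at 0.67 (adjusted p = 0.038). With each of the 12 arrays left out in turn, the call held in 8 fits for Nhp2, 5 for Nip7, 3 each for Exosc1 and Odc1, and 2 for Eif1a. On all 3 arrays Exosc1 and Nip7 read lower after CLP than after sham in wild-type lung, and neither difference was called (adjusted p = 0.091 and 0.34).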

How the results depend on the processing

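Each result was recomputed under 13 alternative settings (12 for the interaction) and with each of the 12 arrays left out. No called member changed direction under any of them. A call needs a difference well above its error and the settings reuse the same arrays, so this was largely set in advance. A further Ncl probe set was called lower in both comparisons of knockout-labelled CLP lung, as given above. Of the members not called 14 of 30 changed sign under at least 1 setting in the knockout-labelled response and 24 of 38 in the wild-type response. The numbers were 10 of 36 in the interaction, 20 of 38 between the genotypes after sham and 9 of 24 after CLP. The number of members called in the knockout-labelled response (8) was 13 under quantile normalisation (12 higher, 1 lower), 20 with each array centred on its median, when the members' median was 0.49 in place of 0.26 and that of all genes 0.11 in place of -0.11, and 2 with only the 2 groups compared. The shares of all genes called higher were 12.2%, 23.7% and 5.16% in these 3 settings. With 1 array left out it was 5 to 11. Array weights called 1 member (lower) in the wild-type response and 7 in the interaction, and leaving out 1 array gave 0 to 7 for the interaction, with 0 without wild-type CLP array 2 or 3 or wild-type sham array 2 or 3. The count between the genotypes after CLP (14) was 5 to 16 with 1 array left out and 10 to 19 otherwise. The wild-type response and the genotypes after sham stayed at 0 with every array left out. Of 24 called member results, 277 values under the other settings kept their call and 27 lost it. A fit to 2 groups leaves fewer arrays to estimate the spread. The main fit shares 1 spread over 4 groups, while the members spread more in knockout-labelled than in wild-type lung. With the wild-type groups fitted alone, 4.33% of all genes were called higher and 1.1% lower, against 1.1% and 0.0591% in the main fit. In knockout-labelled lung these shares were 5.16% and 6.71%, against 11.4% and 19.9%. The counts in the 2 genotypes thus depended on this choice of fit. The cause of the shifts was not tested. Same replicate numbers showed no sign of pairing. Deviations from the group means correlated between -0.10 and 0.12 for 18 same-numbered pairs and between -0.14 and 0.15 for 36 others. These correlations cannot tell whether same-numbered samples were handled together. With the replicate number as a block the knockout-labelled response had 9 called members, the interaction 2 and the comparison of genotypes after CLP 12, and Gnl3 and Nop56 lost their call in the last. Signal over background could not be judged because the values carry no detection calls.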
